A study of Mus musculus with 107 samples.

Results

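The Serpin genes are a family of protease inhibitors and relatives, named by a clade letter after the prefix. Of 23536 probes on the array, 29 had a single gene symbol starting with Serpin, each for a gene of its own. A probe was kept where at least 90% of 104 arrays gave a value inside the limits of the scale, which left 23 Serpin genes among 12315 genes. Of these, 7 belonged to clade A, 9 to clade B and 7 to clades C, D, F, G, H and I, grouped here as the other clades. All 7 clade A probes passed, against 9 of 14 in clade B and 7 of 8 in the other clades.

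The mice were 1 group of F2 females from a cross of C57BL/6J and DBA/2J, all fed an atherogenic diet, with no untreated or control mice. Liver RNA of each mouse and a common pool were compared on a 2-colour array. The labels describe the pool as made of equal RNA parts of all mice. The labels state 111 mice, 107 arrays were given and 3 held only 0 or missing values, so n = 104 mice. F2 mice differ in which parental alleles they inherit, and the design asks how far genes differ from mouse to mouse and which vary together. Each liver was measured once, so array noise is part of every spread, and precision is limited by how many arrays there are. The mice's ages and genotypes were not used here.

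Values are log2 ratios, most likely of mouse over pool, so that 1 is 2-fold above the pool. The direction is not settled by the labels, and 7 of 5356 pairs of arrays correlated below -0.3 over all probes. If the signs of all arrays are turned together, every median and extreme below changes sign and below the pool reads as above it, while ranges and correlations stay as they are. Turning only some arrays would change these too, and this was not tested. The log base was read as 10 because deposited values end at exactly -2 and +2, or 100-fold under that base. A total of 18 arrays, called limit-rich, held 946 to 1828 values at those limits, against 0 to 496 on the other 86. The range of a gene is the fold between its 5th and 95th percentile over mice. Ratios to a pool give no absolute level, so levels of different genes are not compared, and the presence of liver RNA cannot be read from them. All 5 hepatocyte markers, namely Alb, Apoa1, Ahsg, Arg1 and Ttr, were measured on all 104 arrays.

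A typical serpin presents an exposed loop as bait. The protease cuts the loop, and the serpin then folds over and traps the protease in an inactive complex. The liver secretes many clade A, C, D, F and G serpins into plasma, where they restrain coagulation, fibrinolysis, complement and neutrophil proteases, while most clade B serpins stay inside cells and guard them against proteases of their own granules or of killer cells. Some members have lost the inhibitory function and carry hormones or help collagen to fold.

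Spread over mice differed widely within the family. Of the 23 Serpin genes, 5 of 7 in clade A, 7 of 9 in clade B and 4 of 7 in the other clades had a range above 2-fold, against 46.9% of all genes. The median range was 2.80-fold in clade A, 2.64-fold in clade B and 2.18-fold in the other clades, against 1.94-fold over all genes. The clade B value moved with the limit-rich arrays. Without those 18 arrays it was 1.86-fold, with 3 of 9 genes above 2-fold (38.3% of all genes), and on the limit-rich arrays alone it was 5.40-fold. The clade A median was 2.73-fold without them and 5.13-fold on them, while the median of the other clades was 2.31-fold and 2.18-fold and that of all genes 1.81-fold and 1.91-fold. The SD was larger on the limit-rich arrays than on the others in 8 of 9 clade B genes, 3 of 7 clade A genes and 3 of 7 genes of the other clades, against 53.1% of all genes.

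**Figure D1:**
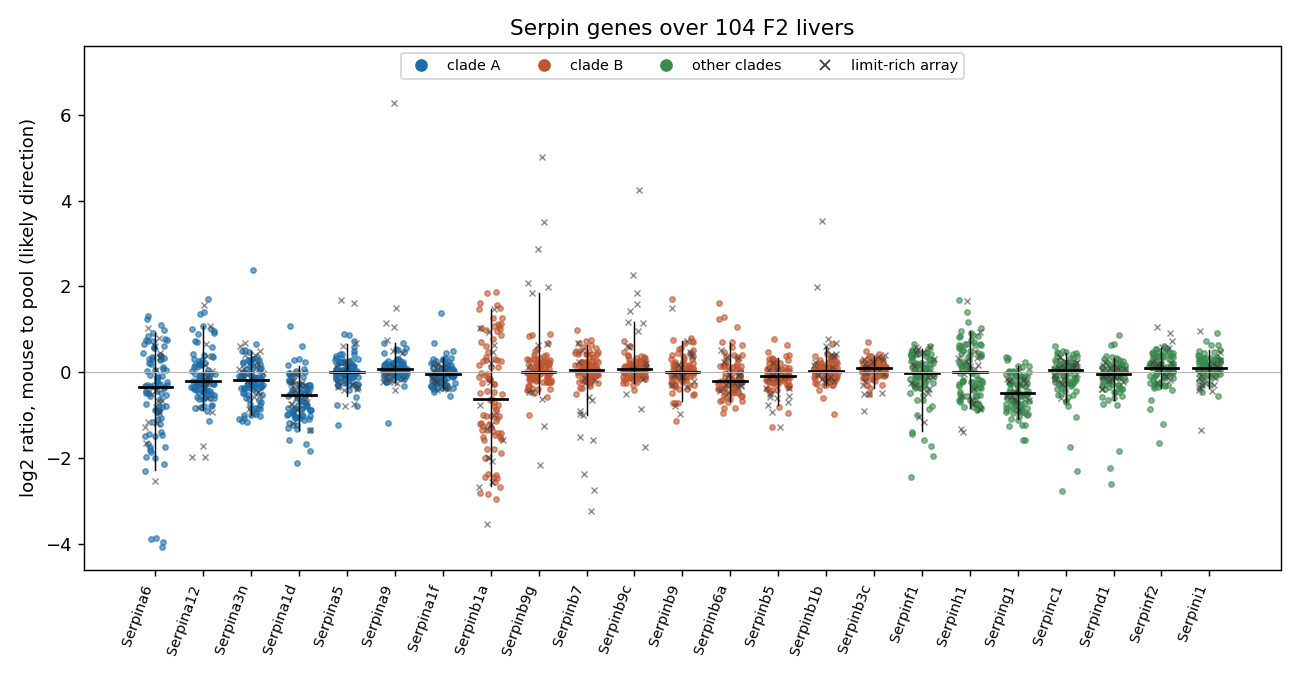
Log2 ratio of each Serpin gene in each of 104 livers, by clade and, within a clade, by falling range. Circles are the 86 other arrays, crosses the 18 limit-rich arrays, horizontal bars the median and vertical bars the 5th to 95th percentile. Serpinb1a and Serpina6 spread widely on both kinds of array, whereas the far points of Serpina9, Serpinb1b, Serpinb9c and Serpinb9g are crosses.

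Serpinc1, Serpind1, Serpinf2 and Serping1 encode the plasma inhibitors antithrombin, heparin cofactor II, alpha-2-antiplasmin and C1 inhibitor, which act on thrombin and factor Xa, on thrombin, on plasmin, and on the proteases of early complement and contact activation. Serpinc1 had a lowest log2 ratio of -2.77, a median of 0.04 and a highest of 0.61, with an SD of 0.49. Serpind1 had -2.60, -0.05 and 0.87 for the same 3 quantities, with an SD of 0.46. Both genes lay close to the pool in most mice, and 4 and 3 mice were more than 2-fold from it. The lowest 2 values of both genes came from the same 2 livers, mouse 26 and mouse 20. Serpinf2 had a lowest log2 ratio of -1.64, a median of 0.11 and a highest of 1.06. Serping1 had -1.58, -0.47 and 0.35, and it lay below the pool in 91 of 104 mice. The labels describe the pool as made of all mice, so this offset is not read here as a level of the gene. Among the hepatocyte markers, medians were -0.49 for Alb, -0.50 for Ahsg, -0.27 for Apoa1, -0.24 for Arg1 and 0.01 for Ttr. The source of such offsets was not tested.

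The RefSeq promoter table of build GRCm38.p6 held 19 of the 23 members, and upstream sequence is shown for a pair of genes that varied together, 2 genes of one cluster that were not called as a pair over all mice, and the collagen chaperone Serpinh1. Each run is the 250 bases before the annotated start, 5′ to 3′ along the gene. Capitals mark a CCAAT box (CCAAT) or a GTTAAT core of the HNF1 site on either strand, which overlap in one stretch below. The same search covered TATAAA, CAAAGTCCA and GAANNTTC, a TATA box, an HNF4-type site and a heat shock element. Serpinc1 and Serpind1 lie on the plus strand at chr1:160978333-160978582 and chr16:17331121-17331370. Serpina1d, Serpina1f and Serpinh1 lie on the minus strand at chr12:103773634-103773883, chr12:103695530-103695779 and chr7:99353240-99353489.
Serpinc1: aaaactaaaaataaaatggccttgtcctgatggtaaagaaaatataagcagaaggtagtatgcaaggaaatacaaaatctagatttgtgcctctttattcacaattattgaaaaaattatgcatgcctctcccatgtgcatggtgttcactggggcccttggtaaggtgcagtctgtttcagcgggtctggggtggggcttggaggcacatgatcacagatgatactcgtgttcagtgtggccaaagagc
Serpind1: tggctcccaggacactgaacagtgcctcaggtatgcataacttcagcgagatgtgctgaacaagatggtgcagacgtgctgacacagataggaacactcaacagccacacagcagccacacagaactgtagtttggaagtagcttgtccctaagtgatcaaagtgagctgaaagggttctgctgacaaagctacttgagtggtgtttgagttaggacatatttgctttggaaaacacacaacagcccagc
Serpina1d: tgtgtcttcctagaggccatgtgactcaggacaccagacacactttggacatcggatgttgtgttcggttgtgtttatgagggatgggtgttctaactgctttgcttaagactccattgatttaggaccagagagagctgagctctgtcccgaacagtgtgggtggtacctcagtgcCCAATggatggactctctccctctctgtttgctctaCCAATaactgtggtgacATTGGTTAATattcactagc
Serpina1f: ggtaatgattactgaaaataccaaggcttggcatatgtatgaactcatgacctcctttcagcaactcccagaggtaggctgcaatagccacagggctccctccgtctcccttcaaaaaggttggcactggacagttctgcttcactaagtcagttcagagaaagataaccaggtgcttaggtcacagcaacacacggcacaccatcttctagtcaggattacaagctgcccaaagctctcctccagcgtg
Serpinh1: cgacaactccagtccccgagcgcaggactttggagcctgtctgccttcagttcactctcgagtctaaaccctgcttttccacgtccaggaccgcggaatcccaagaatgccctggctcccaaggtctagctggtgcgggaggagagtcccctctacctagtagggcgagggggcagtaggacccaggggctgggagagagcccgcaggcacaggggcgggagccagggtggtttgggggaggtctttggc
Of these 5 windows, the one of Serpina1d held matches, and the other 4 held none of the 5 motifs. GTTAAT occurred in 6.52% of 27025 promoters and in 1 of the 19 members, and a CCAAT box in 34.5% of promoters and in 6 members. TATAAA occurred in 13% of promoters and in 2 members (Serpinb3c and Serpinb7), GAANNTTC in 6.78% and in 2 members (Serpina5 and Serpinb5), and CAAAGTCCA in 0.381% and in no member. A match is a run of letters and not a measured binding site.

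Serpinc1 and Serpind1 had the largest Pearson's r of all pairs of members over 104 mice, 0.874, with rho = 0.632. By rho, and by r without mice 20 and 26, Serpina1d with Serping1 stood higher (rho = 0.807, r = 0.761). The permutation p was 1e-05 for each, the smallest that 100000 permutations can give, and the adjusted p from limma was 8.70e-30. The 2 mice farthest from the Serpinc1 median are mice 20 and 26, and r was 0.748 without them. It was 0.884 on the 86 arrays and 0.621 on the 18 limit-rich arrays. Calls of a pair rest on limma fits with each Serpin gene as covariate of every other gene, adjusted by Benjamini and Hochberg over all 283222 tests at 0.05, and a Serpin pair is called where both of its fits pass with one sign.

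The plasma inhibitors formed most of the positive pairs of the other clades. In that class 10 of 21 pairs were called positive and 5 negative. Over all tests of a Serpin gene with another gene, 14.5% were called positive, 14.2% negative and 28.7% in either direction. The members of the other clades had shares of their own over all genes. These ran from 9.57% (Serpini1) to 26.9% (Serpinf1) positive and from 10.3% (Serpini1) to 27.5% (Serpinh1) negative. Of the 21 pairs, 23.8% were called negative, inside the span of these members, and 47.6% positive, above it. Serpinc1 also varied with Serpinf1 (r = 0.714), which encodes the non-inhibitory secreted protein PEDF, with Serping1 (r = 0.652) and with Serpinf2 (r = 0.620). Serpind1 varied with Serpinf1 (r = 0.650) and with Serpinf2 (r = 0.609). Each of these 5 pairs had a permutation p of r of 1e-05. Their rho lay lower, at 0.508, 0.620, 0.370, 0.421 and 0.333 in the same order. Without mice 20 and 26, the r with Serpinf2 was over 1.5 times smaller, at 0.386 for Serpinc1 and 0.365 for Serpind1, and both pairs stayed called (adjusted p = 0.00055 and 0.00127).

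Pairs of the other clades ran both ways, from r = -0.580 to r = 0.874, so their mean and median differ in sign. The median r was -0.028 in the other clades, -0.033 in clade A, 0.009 in clade B and 0.015 between clades. By the median the other clades thus did not stand above clade B or the pairs between clades. Mean r over the 21 pairs of the other clades was 0.158 ± 0.050 (jackknife SE over mice), against 0.001 ± 0.024 in clade A, 0.019 ± 0.022 in clade B and 0.020 ± 0.011 between clades. By the mean the other clades exceeded clade A by 0.157 ± 0.066 and clade B by 0.138 ± 0.053, and clade B exceeded clade A by 0.019 ± 0.035, which is within its SE. The mean of the other clades was 0.0862 without mice 20 and 26, 0.0906 on normal scores of ranks and -0.0002 on the 18 limit-rich arrays alone. Over all 253 pairs of members, 37 (14.6%) were called positive and 31 (12.3%) negative, against 14.5% and 14.2% of single tests of a Serpin gene with any gene. A pair of members must pass in both of its fits, which is the stricter rule, so these shares are not like for like. The same holds wherever a count of member pairs stands beside a share of all genes.

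**Figure D2:**
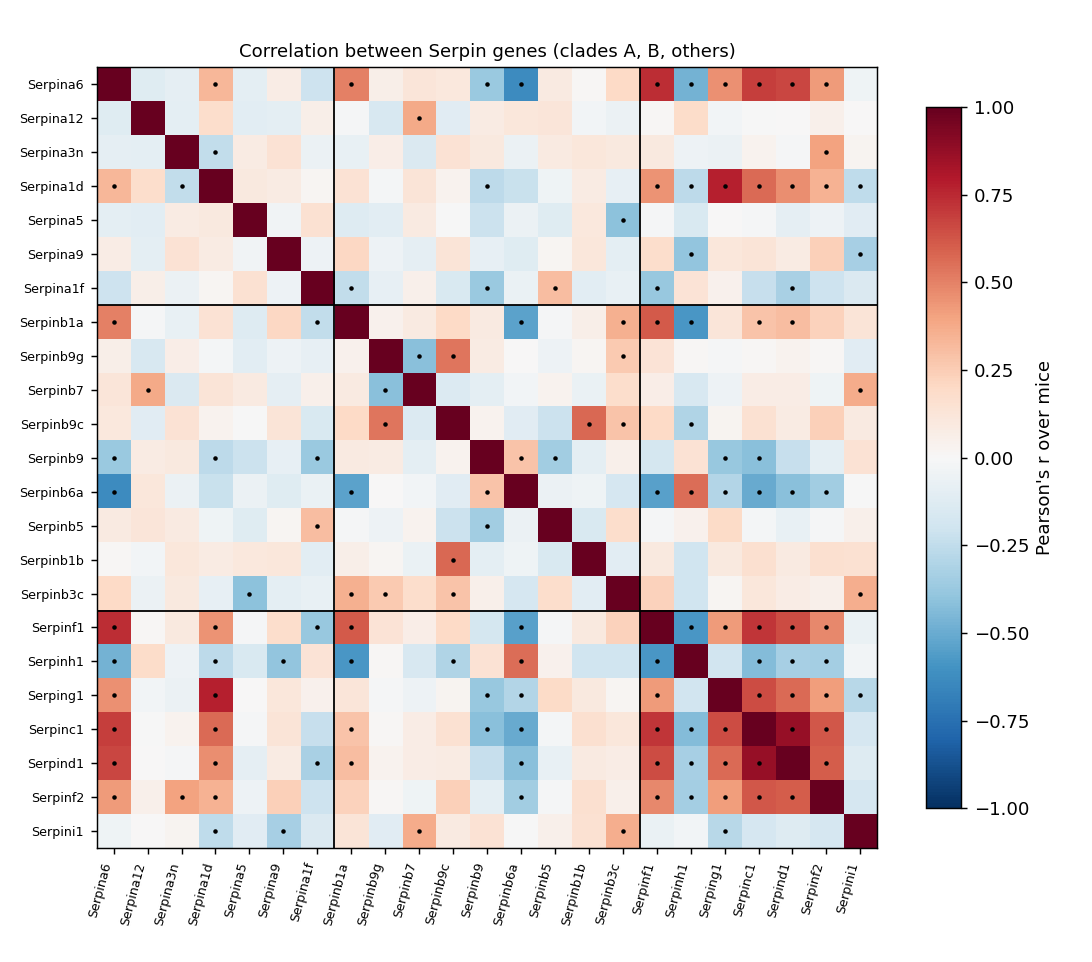
Pearson's r over mice for every pair of the 23 Serpin genes, in the order of clades A, B and others, with lines between clades. Dots mark called pairs. The red and blue block of the other clades holds 10 positive and 5 negative calls of 21 pairs, against 1 and 1 of 21 in clade A and 6 and 3 of 36 in clade B.

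A set of 7 genes that crosses the clades was put together from these pairs: Serpinc1, Serpind1, Serpinf1, Serpinf2 and Serping1 with Serpina1d and Serpina6. All 21 of its pairs were called positive, with r between 0.329 and 0.874, which describes how the set was chosen and is no test of it. With each array centred and scaled, 15 of the 21 were called, and the other 6 had r between 0.096 (Serpina1d with Serpinf2) and 0.202 (Serpina6 with Serping1). With the first principal component removed, 13 were called. Serpina1d, one of several mouse copies of the alpha-1-antitrypsin gene, followed Serping1 with r = 0.776 and rho = 0.807 (permutation p = 1e-05 for both, adjusted p = 1.40e-19). The r was 0.802 without the 2 mice farthest from the Serpina1d median, 0.783 on the 86 arrays and 0.694 on the limit-rich ones. Serpina1d had a lowest log2 ratio of -2.12, a median of -0.54 and a highest of 1.07, and it lay below the pool in 95 of 104 mice. As for Serping1, the source of this offset from a pool of all mice was not tested. Serpina1d also varied with Serpinc1 (r = 0.567, rho = 0.636).

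Some abundant liver genes held identical deposited values on an array, to the last digit. The values of F2, Hp, Ahsg and Fgb equalled that of Alb on 8, 10, 12 and 13 of 104 arrays. Among the Serpin genes this was so on 2 arrays for Serpina1d and on none for the other 22. Serpina1d and Serping1 held identical values on 1 array, and their r was 0.775 over the other 103. Serpina1d and Serping1 had r = 0.612 and r = 0.559 with Alb, and after regression of both on Alb their r was 0.662.

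Serpina6 encodes corticosteroid-binding globulin, a hormone carrier without inhibitory function. It had the second widest range of the family, 9.18-fold, rank 198 of 12315 genes, with a lowest log2 ratio of -4.06 (mouse 26), a median of -0.35 and a highest of 1.31. A total of 31 mice were more than 2-fold from the pool, and mouse 20 stood second lowest at -3.96. Serpina6 varied with Serpinf1 (r = 0.736), Serpinc1 (r = 0.689) and Serpind1 (r = 0.669), and oppositely to Serpinb6a (r = -0.627). Without mice 20 and 26 these 4 values were 0.661, 0.592, 0.559 and -0.673. With the first principal component removed, they were 0.280, 0.292, 0.362 and -0.213. The pairs of Serpina6 with Serpinf1, Serpinc1 and Serpind1 stayed called there, and Serpina6 with Serpinb6a was not called. Its measured partners were Ghr, the growth hormone receptor, and Nr3c1, the glucocorticoid receptor, while Tat and Saa1 were listed but not measured. Ghr followed Serpina6 with r = 0.848 and rho = 0.769 (permutation p = 1e-05 for both, adjusted p = 9.33e-27), and r was 0.805 without mice 20 and 26, 0.854 on the 86 arrays and 0.809 on the limit-rich ones. Nr3c1 had r = 0.420. The genes outside the family with the largest absolute r were Afm (0.857), Ptprd (0.855) and Sult1c2 (0.850). Afm encodes afamin, a plasma protein of the albumin family, and Sult1c2 a sulfotransferase.

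Serpinf1 had a range of 3.72-fold and was skewed downwards, with a lowest log2 ratio of -2.43 (mouse 20), a median of -0.01 and a highest of 0.65. It varied with Serpinb1a (r = 0.611, rho = 0.705). Its 3 closest genes were Pcsk6 (0.885), a proprotein convertase, Aldh2 (0.871), the mitochondrial aldehyde dehydrogenase, and C1qtnf1 (0.866), a secreted protein with a C1q-like domain. With the listed collagen genes it varied oppositely, at r = -0.590 with Col1a1 and r = -0.645 with Col1a2.

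Mice 20 and 26 were the lowest 2 of 104 for Serpina6, Serpinc1, Serpind1, Serpinf1, Serpinf2 and Serping1. For Serpina1d they had ranks 2 and 9 from the lowest. Neither array was limit-rich. The same mice stood high for neutrophil markers, with log2 ratios of 3.16 and 2.31 for Ngp (ranks 103 and 100 of 104), and for 2 of 4 T and NK cell markers, Cd2 (3.77 and 4.61, the highest 2 of 104) and Cd3g (3.70 and 3.44, the highest 2 of 103). The other two were highest in mouse 26 and low in mouse 20, with -0.35 for Il2rb (rank 5 from the lowest) and -1.04 for Ccl5 (rank 17) in mouse 20. Their Ttr was -2.49 and -2.98 (ranks 3 and 2 from the lowest), their F10 -1.86 and -2.40 (ranks 2 and 1) and their Ghr -3.02 and -3.26 (ranks 3 and 1), while Alb ranked 56 and 59 of 104. In bulk liver, fewer cells of a type and less RNA per cell cannot be told apart.

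The listed partners of the plasma inhibitors, not all of them targets, varied with them in most cases. Serpinc1 was called positive with 4 of 5 listed coagulation factor genes, against 24.2% of all genes. These were F10 (r = 0.890, rho = 0.707, adjusted p = 4.41e-32), F9 (r = 0.777), F7 (r = 0.756) and F2 (r = 0.296), whereas F11 had r = 0.177 (adjusted p = 0.171). Without mice 20 and 26 the values were 0.783 for F10, 0.589 for F9 and 0.477 for F7. Serpind1 with F2 had r = 0.226 (adjusted p = 0.0658). Serpinf2 was called positive with 3 of 4 genes of fibrinolysis and fibrin (16.8% of all genes), namely Fga (r = 0.628), Plg (r = 0.476) and Fgg (r = 0.420), whereas Fgb had r = 0.146 (adjusted p = 0.278). Without mice 20 and 26 the Serpinf2 values were 0.486 for Fga, 0.321 for Plg and 0.267 for Fgg. F2 and Fgb are among the genes that shared values with Alb, and the part of this in their lower r was not tested.

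Serping1 was called positive with 7 of 8 measured partners, against 20.5% of all genes. Klkb1 (r = 0.510), F12 (r = 0.469) and C1ra (r = 0.408) encode proteases that C1 inhibitor acts on. Of the lectin pathway proteases, Masp2 had r = 0.348 and Masp1 had r = 0.218 (adjusted p = 0.0780). Irf7 and Ifit3, which interferon induces, had r = 0.385 and r = 0.384, and Irf1 had r = 0.290. Without mice 20 and 26, r with C1ra was 0.222 and was not called (adjusted p = 0.0802). On the 18 limit-rich arrays alone r was -0.259 with C1ra and -0.0826 with F12.

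Few clade A pairs were called. Of 21, Serpina1d with Serpina6 was called positive (r = 0.329, permutation p = 0.00079, adjusted p = 0.00351) and Serpina1d with Serpina3n negative (r = -0.243, permutation p = 0.0135, adjusted p = 0.0441). All 7 genes lie on chromosome 12. Several were called with few genes of any kind. The shares in either direction were 6.87% for Serpina12, 9.33% for Serpina5, 9.41% for Serpina3n and 13.2% for Serpina9. They were 30.9% for Serpina1f, 42.1% for Serpina1d and 45.9% for Serpina6. The few pairs are therefore not read as a trait of the clade. The positive pair was not called with each array centred and scaled (r = 0.132, adjusted p = 0.376) and had r = -0.049 with the first principal component removed. The negative pair had r = -0.318 without mice 20 and 26 and was not called on the 86 arrays (r = -0.222, adjusted p = 0.0960). Serpina1f, a gene of the alpha-1-antitrypsin cluster, had r = 0.019 with Serpina1d over all mice (adjusted p = 0.918). The r was -0.051 on the 86 arrays and 0.778 on the 18 limit-rich ones, where the pair was called (adjusted p = 0.031). It had the narrowest range of the family, 1.62-fold, with a lowest log2 ratio of -0.55, a median of -0.05 and a highest of 1.39 in mouse 20. Serpina1f was called negative with Serpinf1, Serpinb9, Serpind1 and Serpinb1a and positive with Serpinb5, and with 30.9% of all genes in either direction. On normal scores of ranks, the pairs with Serpinf1 (r = -0.214, against -0.376) and Serpind1 (r = -0.107, against -0.322) were not called. Those with Serpinb9, Serpinb1a and Serpinb5 stayed called there. Without the limit-rich arrays 4 clade A pairs were called, among them Serpina1f with Serpina5 (r = 0.268) and, negatively, with Serpina6 (r = -0.260).

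The partners listed for alpha-1-antitrypsin genes were its target elastase, cathepsin G and the growth hormone axis. Serpina1d was called with Igf1 (r = 0.579, rho = 0.567, adjusted p = 3.43e-09) and Ghr (r = 0.354), and not with Elane, Ctsg or Stat5b. Serpina1f was called with Ctsg (r = 0.379) and, negatively, with Ghr (r = -0.345). Mouse 20 was highest for Serpina1f and had rank 3 from the lowest for Ghr. The r of these pairs without that mouse is not given here.

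Serpina3n, an acute-phase relative of antichymotrypsin, had a range of 2.83-fold, with a lowest log2 ratio of -1.17, a median of -0.17 and a highest of 2.38. It was called positive with 6 of 11 measured partners, against 5.57% of all genes: Stat3 (r = 0.425), the transcription factor of the acute phase, Lbp (r = 0.417), Orm1 (r = 0.410), Orm2 (r = 0.329), Socs3 (r = 0.317) and Steap4 (r = 0.258). Saa3, Hp and Lcn2, also acute-phase genes, had r = 0.019, -0.131 and 0.225 and were not called. Without the 2 mice farthest from its median, Orm1 had r = 0.236, Lbp 0.339 and Stat3 0.369. On the limit-rich arrays Lbp had r = -0.256. Its 3 closest genes were Rpusd1 (0.630), Itih3 (0.605), an inter-alpha-trypsin inhibitor heavy chain, and Rhag (0.580), and r with Rpusd1 was 0.023 on the limit-rich arrays and 0.693 on the other 86. Within the family Serpina3n was called positive with Serpinf2 alone.

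Serpina12 encodes vaspin, an adipokine that inhibits kallikrein 7. It had a range of 3.91-fold, with a lowest log2 ratio of -1.98, a median of -0.20 and a highest of 1.71 over 103 mice. Its closest gene was Cpsf2 (r = 0.578, rho = 0.585), followed by 5033406O09Rik (0.526) and Ubl4b (0.459). The last turned to r = -0.090 without the limit-rich arrays. Serpina12 with Ghr had r = 0.091 (adjusted p = 0.542). Serpina5, the protein C inhibitor gene, had a lowest log2 ratio of -1.22, a median of 0.01 and a highest of 1.69, and it was called with neither Proc (r = -0.038) nor F2 (r = 0.236). Serpina9 stayed between -1.18 and its 95th percentile of 0.69 in nearly all mice, with a median of 0.07. Its highest log2 ratio was 6.28, in mouse 63 on a limit-rich array, near the upper limit of 6.64, and its SD was 1.53 on the limit-rich arrays and 0.23 on the others.

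Serpinh1 encodes HSP47, a chaperone of the endoplasmic reticulum that binds procollagen and does not inhibit proteases. It had a range of 3.46-fold, with a lowest log2 ratio of -1.40, a median of -0.00 and a highest of 1.68. It was called positive with 8 of 8 listed genes of collagen and its processing, against 19.7% of all genes. The r was 0.903 for Col3a1 (rho = 0.895, permutation p = 1e-05 for both, adjusted p = 4.72e-35), 0.881 for Col1a1, 0.876 for Col1a2, 0.874 for Col4a1, 0.860 for Sparc and 0.801 for Col4a2. The enzymes followed less closely, with 0.633 for Lox, which cross-links collagen, and 0.541 for P4ha1, which hydroxylates it. For Col3a1, r was 0.884 on the 86 arrays and 0.959 on the limit-rich ones. The 3 genes most like it over all genes were Pcolce (0.904), which enhances procollagen processing, Col3a1 and Col6a3 (0.888).

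Within the family Serpinh1 was the member with most negative calls, 9 of 22, against 1 positive call, with Serpinb6a. Over all genes, 27.5% were called negative with Serpinh1, the highest share of any member. It varied oppositely to Serpinf1 (r = -0.580, rho = -0.634), Serpinb1a (r = -0.578), Serpinc1 (r = -0.433, rho = -0.530) and Serpinf2 (r = -0.340). The first 2 of these had adjusted p-values of 2.95e-09 and 3.18e-09. Without mice 20 and 26, r with Serpinc1 was -0.557. These directions did not hold with the first principal component removed. There r was 0.361 with Serpinc1 (called positive, adjusted p = 0.00264), 0.236 with Serpinf1, 0.037 with Serpinf2 and -0.089 with Serpinb1a, the last 3 not called. Serpind1 (r = 0.379, against -0.330 before) and Serpina6 (r = 0.331, against -0.474) were also called positive with Serpinh1.

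Clade B held the widest range of the family. Serpinb1a, an intracellular inhibitor of neutrophil elastase and related proteases, had a range of 17.3-fold, rank 68 of 12315 genes. Its log2 ratios had a lowest of -3.54, a median of -0.63 and a highest of 1.86, with an SD of 1.29 ± 0.07 (jackknife SE). The values were spread flatly rather than by a few mice, since 60 of 104 mice were more than 2-fold from the pool and the excess kurtosis was -0.84. The range was 16.2-fold without the limit-rich arrays and 14.9-fold on them. Its closest genes were Sult2a8 (r = 0.806, rho = 0.841), a sulfotransferase, Uck1 (0.791), a uridine-cytidine kinase, and Ndufaf1 (0.743), an assembly factor of respiratory complex I. Serpinb1a was called positive with Serpinf1, Serpina6, Serpinc1, Serpind1 and Serpinb3c, and negative with Serpinb6a, Serpinh1 and Serpina1f. These were 5 and 3 of 22 members, against 23.5% and 19.5% of all genes, so the calls are no trait of the family. The r of Serpinb1a with Serpinc1 was 0.283, and -0.438 and called negative with the first principal component removed. Among listed neutrophil genes it varied oppositely to S100a8 (r = -0.518, rho = -0.571) and was not called with Elane (r = 0.146) or Ctsg (r = -0.222).

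Serpinb6a, an intracellular inhibitor of cathepsin G and other proteases, had a lowest log2 ratio of -0.94, a median of -0.20 and a highest of 1.60. It was called negative with 7 of 22 members and positive with 2, Serpinh1 and Serpinb9, against 20.8% and 18.3% of all genes. Its r was -0.533 with Serpinb1a (adjusted p = 1.15e-07) and -0.544 with Serpinf1 (adjusted p = 4.98e-08). With the first principal component removed, none of these pairs of Serpinb6a was called. There r was -0.118 with Serpinb1a, 0.078 with Serpinf1 and 0.028 with Serpinh1. Serpinb9, which inhibits granzyme B and so guards immune cells against their own granules, had a lowest log2 ratio of -1.14, a median of -0.00 and a highest of 1.70, in mouse 26. It was called with Ccl5 (r = 0.399) and Gzmb (r = 0.285) and not with Gzma (r = 0.063) or Cd3g (r = 0.161). Mouse 26 was also the highest of 104 for Ccl5, at 4.47, and r of these pairs without that mouse is not given here. Over all genes, 18.6% were called positive with Serpinb9. The r of Serpinb9 was 0.282 with Serpinb6a, which was not called without mice 20 and 26 (adjusted p = 0.0688) and was -0.056 on the limit-rich arrays. It was -0.347 with Serpinb5, the gene of maspin.

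A further 4 clade B genes had far wider ranges on the limit-rich arrays than on the others. Serpinb9g, a mouse paralog of Serpinb9, had a lowest log2 ratio of -2.17, a median of 0.00 and a highest of 5.02 over 100 mice. Its range of 5.11-fold was 1.93-fold on the 86 arrays and 48.6-fold on the limit-rich ones. Serpinb9c, another such paralog, had -1.74, 0.08 and 4.24, and a range of 1.53-fold on the 86 arrays and 12.8-fold on the others. Serpinb7, the gene of megsin, had -3.23, 0.06 and 0.99, with 1.86-fold and 10.6-fold. Serpinb1b had -0.97, 0.04 and 3.52, with 1.58-fold and 5.40-fold. For all 4 genes the highest or the lowest mouse, or both, were on limit-rich arrays. Serpinb3c and Serpinb5 stayed narrower, with ranges of 1.66-fold and 2.11-fold over all mice.

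Several clade B pairs also changed without the limit-rich arrays. Serpinb1b with Serpinb9c had r = 0.575 over 103 mice (rho = 0.281, adjusted p = 5.48e-09), 0.294 without the 2 mice farthest from the Serpinb1b median, and 0.158 on the 86 arrays, where it was not called (adjusted p = 0.277). Serpinb7 with Serpinb9g was negative over 99 mice (r = -0.419, rho = 0.025) and had r = 0.188 on the 86 arrays. Serpinb9c with Serpinb9g had r = 0.531 over 99 mice, and 0.376 on the 86 arrays, where it stayed called (adjusted p = 0.0025). Serpinb3c varied with Serpinb1a (r = 0.353, rho = 0.336), Serpinb9c (r = 0.284) and Serpinb9g (r = 0.264). The pair with Serpinb9g was not called on the 86 arrays (adjusted p = 0.0680), and the pair with Serpinb9c had r = 0.397 there. Calls were also gained on the 86 arrays, for Serpinb3c with Serpinb7 (r = 0.509, against 0.175 over all mice), Serpinb1a with Serpinb9c (0.386), Serpinb9 with Serpinb9g (0.291) and Serpinb3c with Serpinb5 (0.275).

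The genes most like Serpinb9g and Serpinb7 also had a lower r without those arrays. For Serpinb9g, r over all mice and on the 86 arrays was 0.780 and 0.272 with Wfikkn2, 0.757 and 0.499 with Hsf2bp, and 0.743 and 0.304 with 4930545H06Rik. For Serpinb7 it was 0.775 and 0.386 with Dnajc5b, 0.729 and 0.472 with 4930402D18Rik, and 0.724 and 0.130 with Krtap20-2.

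Serpini1, the gene of neuroserpin, which inhibits the plasminogen activator encoded by Plat, had a lowest log2 ratio of -1.35, a median of 0.09 and a highest of 0.95. Its r with Plat was 0.161 (adjusted p = 0.222). It was called negative with Serpina1d, Serpina9 and Serping1 and positive with Serpinb3c and Serpinb7. These were 3 and 2 of 22 members, against 10.3% and 9.57% of all genes. The pair with Serpina9 had r = -0.333 over all mice and r = 0.337 without the limit-rich arrays, where it was called positive.

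The calls were also counted by chromosome. Of the 43 pairs on one chromosome, 5 (11.6%) were called positive and 2 (4.65%) negative. Of the 210 pairs on different chromosomes, 32 (15.2%) and 29 (13.8%) were called. Of single tests of a Serpin gene with any gene, 14.5% and 14.2% were called. The 43 pairs include all 21 clade A pairs, so chromosome and clade cannot be told apart in these counts. Clade B lies on chromosomes 1 and 13, and 3 of its 18 pairs on one chromosome were called positive, against 3 of its 18 pairs on different ones. Near-identical copies within the Serpina1, Serpina3, Serpinb1, Serpinb6 and Serpinb9 groups may share probe signal, and this was not tested, since the probe sequences were not used here.

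Over the whole partner list, 35 of 74 measured pairs (47.3%) were called positive, 5 (6.76%) negative and 34 were not called, against 14.5% and 14.2% of a Serpin gene with any gene. A further 42 listed pairs lacked a measured gene. Of the 78 named pairs, 63 had the smallest permutation p for r and 50 for rho, and the largest permutation p of r was 0.0135. The named pairs were chosen by their r or their call on these same mice. Small p-values therefore follow from the choice, and these counts are no test of the pairs.

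Cell type markers varied with many members. Serpinh1 and Serpinb6a were each called positive with 4 of 4 stellate cell and fibroblast markers, 5 of 5 macrophage markers, 4 of 4 neutrophil markers and 4 of 4 cholangiocyte markers. Serpina6, Serpinb1a, Serpinc1, Serpind1 and Serpinf1 were each called negative with all of these 17 markers. Over all genes, Serpinh1, Serpinb6a and these 5 members had shares of 18.3% to 26.9% called positive and 19.5% to 27.5% called negative. The stellate cell and fibroblast markers were Col1a1, Col1a2, Col3a1 and Sparc. All of them are listed partners of Serpinh1, so its calls with them repeat the tests given above. Serpinf1 with Col1a1 and Col1a2, Serpinb1a with S100a8, and Serpinb9 with Ccl5 and Cd3g were likewise partner pairs given above. Serpina1d and Serping1 were called positive with 5 of 5 hepatocyte markers (21.2% and 20.5% of all genes), Serpinc1 with 3, and Serpind1 and Serpinf1 with 2. Serpinb9 was called positive with 4 of 5 macrophage, 2 of 4 T and NK cell and 2 of 4 cholangiocyte markers (18.6% of all genes). It was called negative with 4 of 5 hepatocyte markers (17.1% of all genes). Serpini1 was also called positive with 2 of 4 T and NK cell markers and negative with 4 of 5 hepatocyte markers (9.57% and 10.3% of all genes). Mouse 26 ranked 103 of 104 for Serpini1 and was the highest for Serpinb9 and for the T and NK cell markers Cd2, Il2rb and Ccl5. Calls of Serpinb9 and Serpini1 with these markers without that mouse are not given here. None of the Serpin genes named in this paragraph was called with a pancreatic acinar marker.

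The mean log2 ratio of the markers ran over mice from -2.60 to 2.31 for stellate cells and fibroblasts, from -1.45 to 1.70 for macrophages, from -3.80 to 3.30 for neutrophils, from -1.86 to 2.43 for cholangiocytes and from -1.34 to 0.63 for hepatocytes. Of 4 keratinocyte markers 2 were measured. Acinar markers stood at 3.13 to 4.25 in 3 mice and at most at 0.08 in the others, and the pair counts stayed within 1.5 times of those given without those 3 mice. The markers' part in the pairs above was not tested.

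**Figure D3:**
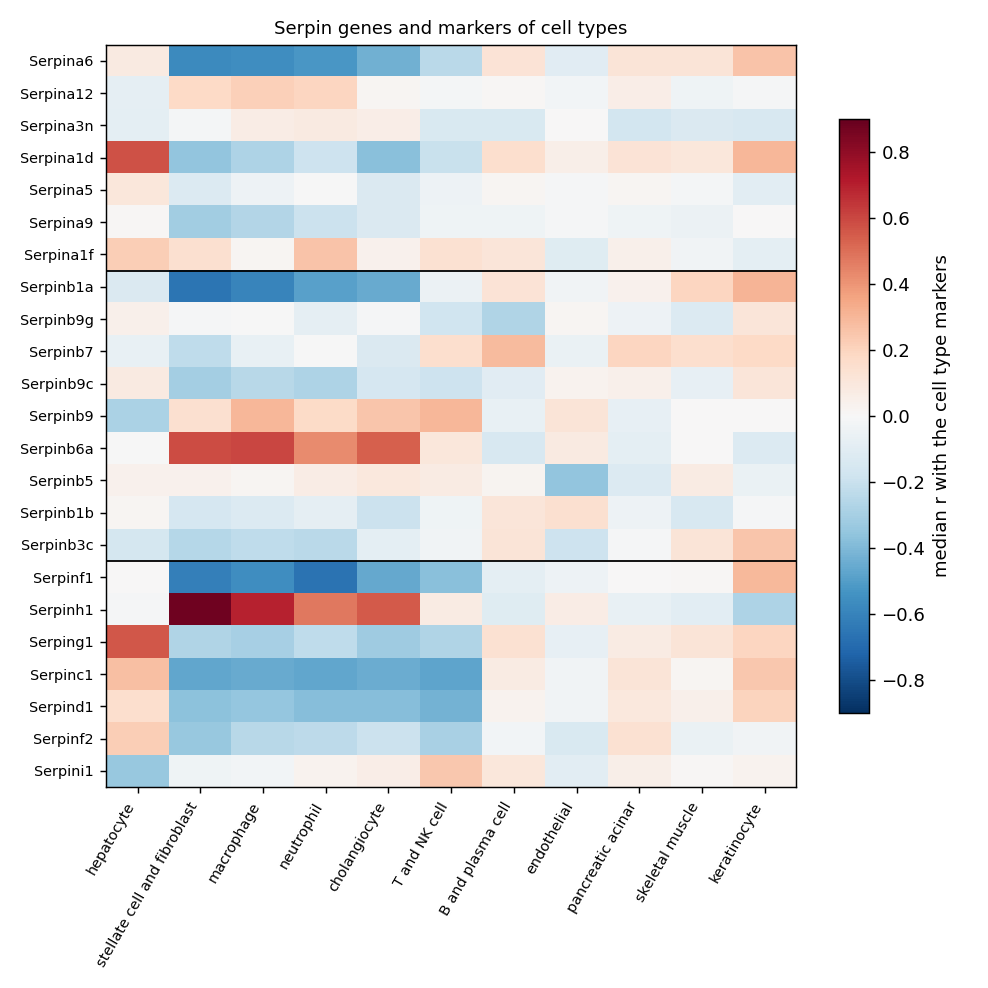
Median r over mice of each Serpin gene with the markers of 11 cell types. Serpinh1 and Serpinb6a have positive medians with stellate cell, macrophage, neutrophil and cholangiocyte markers (0.88 and 0.58 for stellate cell markers), whereas Serpina6, Serpinb1a, Serpinc1, Serpind1 and Serpinf1 have negative ones. The stellate cell markers are all listed partners of Serpinh1.

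The 6 Serpin genes left out were Serpinb2 (91 mice measured), Serpinb11 (90), Serpinb12 (89), Serpini2 (88), Serpinb3a (86) and Serpinb9b (85), below the 94 mice needed. Just inside stood Serpinb9g (100), Serpinb7 (102), Serpina12 and Serpinb9c (103 each), and the other 19 members were measured in all 104 mice. Values at the limits of the 6 genes left out lay on limit-rich arrays, except 1 of 6 for Serpinb9b.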

How the data were processed

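RNA of 104 livers was analysed from 2-colour arrays of each mouse against a pool. The authors deposited 1 value per probe and array, read here as log10 ratios, and the labels give neither base, dyes nor normalization (not given in the sources used here). Array medians lay between -0.09 and 0.07 log2. Values at -2 or +2 were treated as not measured, and values were multiplied by log2 of 10. Of 23536 probes, 14744 had 1 symbol from GEO's platform annotation, updated by RefSeq's GRCm38.p6 gene list, 18 had several and 8774 none here. Probes of a gene were averaged.

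Spread and correlation were computed in Python 3.11.15 with scipy 1.17.1, and fits across all genes in R 4.3.3 with limma 3.58.1, with each Serpin gene as a numeric covariate. Benjamini-Hochberg adjustment ran over all 283222 tests at 0.05. Permutation tests were two-sided with 100000 draws. The limma fits were tested on simulated data. Errors of mean r and SD are jackknife SEs over mice. Mice are separate animals, and each was measured once.

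The members, clades, partner genes and markers were chosen with earlier results of these data known. The text names every member's spread, in each of 4 classes the 6 called pairs of largest r and up to 3 most negative, the 3 closest genes of the 8 members of widest range, and called partner pairs with an absolute r of at least 0.4. Some other pairs, and mice 20 and 26, were singled out after their values were seen. Alternatives left out or isolated the limit-rich arrays, took them as a block, kept limit values, rescaled arrays, took 1 probe a gene or fully measured probes, used ranks, removed the first principal component, and left out mice.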

Additional observations from a re-analysis of the deposited data

How the results depend on the processing

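No paired analysis was possible because the mice form 1 group. Leaving out the 18 limit-rich arrays gave 4 called clade A pairs in place of 2, mean r of 0.0402 between clades and 0.0478 within clade B, a clade B median range of 1.86-fold and 3 clade B genes above 2-fold. On those 18 arrays alone, where few pairs can be called and 0.901% of all tests were positive, the called pairs numbered 1 in clade A, 0 in clade B, 0 in the other clades, 2 between clades and 11 of the 74 partner pairs, the other clades had a mean r of -0.00017, and the median range was 5.13-fold in clade A and 5.40-fold in clade B. Centring and scaling each array gave 1 clade A and 5 clade B pairs and mean r of 0.0903 in the other clades and 0.0074 between clades. Normal scores gave 4 clade A pairs and mean r of 0.0906 in the other clades and 0.0419 between clades. Removing the first principal component, which held 19.5% of the variance, gave 0 clade A pairs, 23 pairs between clades, and mean r of -0.0232 in clade A and -0.0100 between clades. Keeping limit values gave a mean r of 0.0600 in clade B. Fully measured probes gave 4 of 15 clade B pairs, a clade B mean r of -0.0342 and 4 of 6 clade B genes above 2-fold. Leaving out mice 20 and 26, an alternative chosen after seeing the data, gave a mean r of 0.0862 in the other clades. Read as natural logs, median ranges were 1.56-fold, 1.53-fold and 1.40-fold in clades A, B and the others, with 1, 2 and 0 genes above 2-fold. Signs reversed on the limit-rich arrays alone for Serpina3n and Lbp (-0.256), Serpinb6a and Serpinb9 (-0.0561), Serping1 and C1ra (-0.259) and Serping1 and F12 (-0.0826), and without those arrays for Serpina12 and Ubl4b (-0.0899) and Serpinb7 and Serpinb9g (0.188). The last pair also had a rho of 0.0254 over all 99 mice. With the first principal component removed, signs reversed among named pairs for Serpina1d and Serpina6 (-0.0490), Serpinb6a and Serpinf1 (0.0782), and Serpinh1 with Serpinc1 (0.361), Serpinf1 (0.236) and Serpinf2 (0.0366). Of all 68 called member pairs, that setting kept 32 called with the same sign and turned 14, of which 4 were called the other way, whereas centring and scaling kept 53, normal scores 62 and leaving out the limit-rich arrays 60. The cause of these changes was not tested. Taking the limit-rich arrays as a block, 1 probe a gene, and leaving out the 3 mice of highest acinar markers moved no count of pairs by 1.5 times. Signal over background was not analysed here.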
